A study of Mus musculus with 3 samples.

Results

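Subplate neurons are among the earliest-born neurons of the cerebral cortex. They lie below the cortical plate, guide and briefly relay the first thalamic input to the cortex, and in the rodent the survivors persist as a thin band called layer 6b. Because they share a small set of transcripts, a handful of marker genes is commonly used to follow them in whole cortex. Here 8 such markers were followed: Cplx3, Ccn2 (formerly Ctgf), Nxph4, Nr4a2, Lpar1, Moxd1, Tmem163 and Zfpm2. They were taken by symbol, with every probe of each gene, which gave 12 of the 55681 non-control probes on the array (8 of 35468 gene names). Of these, 10 probes covering all 8 genes were bright enough to be tested, among 32983 probes and 23232 genes tested in all. Probes without a gene symbol were counted as genes under their array identifier, here and in every share over all genes.

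The arrays compared dorsal cortex of untreated mouse pups at postnatal day 4. On each of 3 two-colour arrays, RNA labelled as wild type carried the dye Cy3 and RNA labelled as Brpf1-deficient carried Cy5, with 1 pup of each genotype per array and the pairs numbered 1 to 3. Brpf1 is a scaffold subunit of histone acetyltransferase complexes. The labels name no allele, Cre driver or litter, so it is not known which cells lost the gene. The dyes were never swapped, so a dye effect and a genotype effect cannot be told apart. Every value below is a log2 ratio of Cy5 over Cy3 unless it is called a level.

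The direction of the ratios is not settled. The single Brpf1 probe tested was brighter in Cy5, the channel labelled Brpf1-deficient, on all 3 arrays (0.62, 0.73 and 0.96, a mean of 0.77 ± 0.17 SD, limma adjusted p = 0.00453), and whether it lies in the deleted part is not known. In the authors' deposited table Brpf1 has a log2 fold change of -0.80, and 23904 of the 23924 tested probes listed there have the opposite sign to the ratio used here. Genes are therefore described by channel, and with the sign turned each statement below would hold for the other label. The 3 arrays shared a slide and a scan, had 57.9 to 61.0% of their 59305 non-control spots well above background, and their ratios correlated with r = 0.485 to 0.703 across probes. Emx1, a transcription factor of dorsal cortical neurons, was 0.65 on array 1 and -2.72 and -2.65 on arrays 2 and 3, so the pair on array 1 stood apart there, and the values of each tested marker probe without it follow its own. Of 8 markers of cortical excitatory neurons all were tested, and 7 were above background in both channels on all 3 arrays, with Emx1 the exception (above it in Cy5 on 2 arrays). Of these 8, 3 were called in Cy5 (Slc17a7 at 0.36, Bcl11b at 0.39 and Tbr1 at 0.33) and 1 in Cy3 (Neurod6 at -0.38), with a median of 0.13 (0.42 with each array centred on its median). The counts were 1 and 1 without array 1, 3 and 2 without array 2, and 0 without array 3 and with the scanner's processed signals (3 in Cy5 and 1 in Cy3, and 4 and 1, at an unadjusted p below 0.05 by limma). Because the tissue was taken whole, a change in the number of subplate cells and a change in RNA per cell cannot be told apart.

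Among the 8 markers, 4 were brighter in Cy5 at an adjusted p below 0.05 (Cplx3, Ccn2, Moxd1 and Nxph4). None was brighter in Cy3, and by limma at an unadjusted p below 0.05 the counts were 5 and 0. Without array 1 the same counts by adjusted p, 4 and 0, were found. They were 3 and 1 without array 2, and 3 and 0 without array 3. Over all genes, 16.7% were called, 7.75% as brighter in Cy5 and 8.99% as brighter in Cy3. Over all probes the shares were 16.8%, 7.48% and 9.37%, against 4 of the 10 marker probes tested. The markers' median ratio was 0.26, beside -0.01 over all genes, and it was 0.28, 0.27 and 0.32 on arrays 1, 2 and 3. The 8 genes did not move as a block: mean ratios ran from -0.23 for Zfpm2 to 2.43 for Cplx3.

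The stretches of 250 bases before the transcription start of the called markers Cplx3 and Moxd1 are shown because these genes differed on every array; they come from RefSeq (GRCm38.p6), and capitals mark the motifs that a search of both strands found. Cplx3 is on the minus strand at chr9:57606282-57606531 and Moxd1 on the plus strand at chr10:24223267-24223516.
Cplx3: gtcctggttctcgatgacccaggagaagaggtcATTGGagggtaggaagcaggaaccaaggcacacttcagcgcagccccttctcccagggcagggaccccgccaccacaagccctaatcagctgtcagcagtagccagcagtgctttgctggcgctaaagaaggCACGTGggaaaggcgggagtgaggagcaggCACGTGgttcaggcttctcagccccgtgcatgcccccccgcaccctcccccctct
Moxd1: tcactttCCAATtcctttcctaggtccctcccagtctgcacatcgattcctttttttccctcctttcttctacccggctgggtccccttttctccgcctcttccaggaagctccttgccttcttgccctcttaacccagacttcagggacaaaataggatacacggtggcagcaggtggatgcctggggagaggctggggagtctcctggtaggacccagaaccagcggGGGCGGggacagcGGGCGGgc

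The Cplx3 stretch holds the E-box CACGTG at 2 places, 85 and 55 bases before the start. Of 32841 RefSeq stretches of the same length, 6.02% hold this E-box at least once and 0.429% hold 2 or more. It also has 1 CCAAT box, read as ATTGG on this strand, a motif found in 33.9% of all stretches. The Moxd1 stretch has 1 CCAAT box and 2 GC boxes (GGGCGG, found in 32.7% of all stretches) at 21 and 8 bases before the start. It has no CACGTG, and other forms of the E-box were not searched in either stretch. Entries were matched for 5 of the 8 markers (7 stretches, 3 of them for Lpar1), and no entry was found for Ccn2, Nxph4 or Zfpm2. None of the 7 stretches holds GGAATG (the TEAD site), AAAGGTCA (the NR4A monomer site), TGACTCA (AP-1) or TGACGTCA (the cyclic AMP response element). A match describes these letters only.

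Cplx3 encodes a complexin, a small protein that binds the vesicle fusion machinery at synapses. It stood highest of the 8 markers. Its median spot signal was 213, 152 and 162 in Cy3 and 2310, 1420.5 and 1419.5 in Cy5 on arrays 1, 2 and 3, over local backgrounds of 39 to 58 in Cy3 and 97 to 149 in Cy5. Both channels were well above background on every array, and the dimmest Cy5 signal lay far above the brightest Cy3 signal. After normalization the log2 levels were 8.04, 7.82 and 7.89 in Cy3 and 10.697, 10.17 and 10.17 in Cy5, with no overlap. The log2 ratios were 2.66, 2.35 and 2.28, a mean of 2.43 ± 0.20 (SD, n = 3), which is 5.39-fold (95% interval 2.22 to 2.64 on the log2 scale, limma adjusted p = 3.48e-05). This mean ranked 2 among the 32983 probes, ordered from the brightest in Cy5 relative to Cy3. Probes of similar intensity had a median ratio of 0.00, and 8.67% of them were called as brighter in Cy5. Without array 1 the mean was 2.31 (adjusted p = 7.57e-05).

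**Figure D1:**
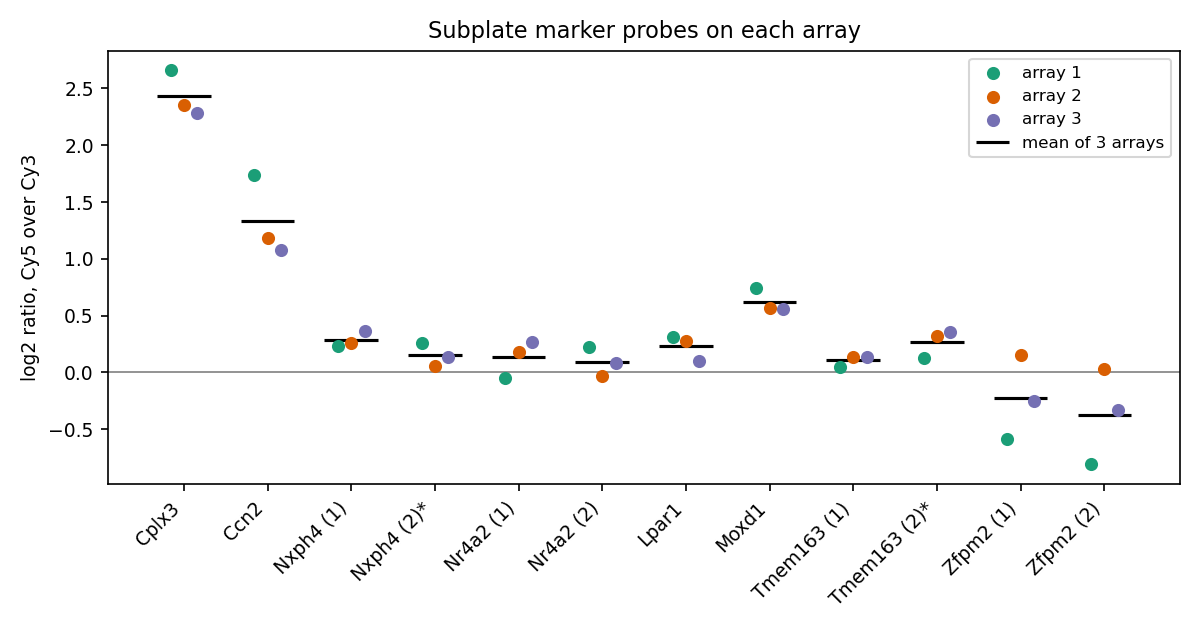
Log2 ratio of Cy5 over Cy3 (vertical axis) of the 12 probes of the subplate markers, with a point for each of the 3 arrays and a line for their mean; an asterisk marks a probe too dim to be tested. Cplx3, Ccn2 and Moxd1 are above 0.5 on every array, while both Zfpm2 probes are below 0 on arrays 1 and 3 and above 0 on array 2.

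Ccn2, formerly Ctgf, encodes a secreted matricellular protein and is a widely used marker of the subplate and layer 6b. Its log2 levels were 11.09, 11.38 and 11.39 in Cy3 and 12.83, 12.57 and 12.47 in Cy5, so the channels did not overlap. The ratios were 1.74, 1.19 and 1.08, with array 1 the highest. Their mean was 1.34 ± 0.35 (SD, n = 3), or 2.52-fold (95% interval 1.04 to 1.63, limma adjusted p = 0.00216), at rank 19 of all probes. Without array 1 it was 1.13 (adjusted p = 0.00122).

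Moxd1 encodes a monooxygenase related to dopamine beta-hydroxylase. Its log2 levels were 9.59, 9.52 and 9.37 in Cy3 and 10.34, 10.08 and 9.92 in Cy5, again without overlap. The ratios of 0.75, 0.56 and 0.56 averaged 0.62 ± 0.11 (SD, n = 3), or 1.54-fold (95% interval 0.45 to 0.80, limma adjusted p = 0.00597). It was smaller than the ratios of Cplx3 and Ccn2, whose intervals lie above that of Moxd1. Without array 1 it was 0.56 (adjusted p = 0.00870).

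Nxph4 encodes neurexophilin 4, a secreted protein of the family that binds neurexins. Its brighter probe had log2 levels of 7.83, 7.48 and 8.08 in Cy3 and 8.06, 7.74 and 8.44 in Cy5. The channels overlapped between arrays, but Cy5 was the brighter within each array (0.23, 0.26 and 0.37, a mean of 0.29 ± 0.07 SD, or 1.22-fold, 95% interval 0.12 to 0.45, limma adjusted p = 0.0366). This call was lost without array 2 (adjusted p = 0.0783), without array 3 (0.186), with the scanner's own processed signals (0.0513) and with the channels treated as unpaired (0.417). Without array 1 the call held, at 0.31 (adjusted p = 0.0374). Adjusted p-values over all alternatives ran from 0.0347 to 0.417. The other Nxph4 probe was well above background on 1 array and was not tested, and its ratios were 0.26, 0.06 and 0.14.

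**Figure D2:**
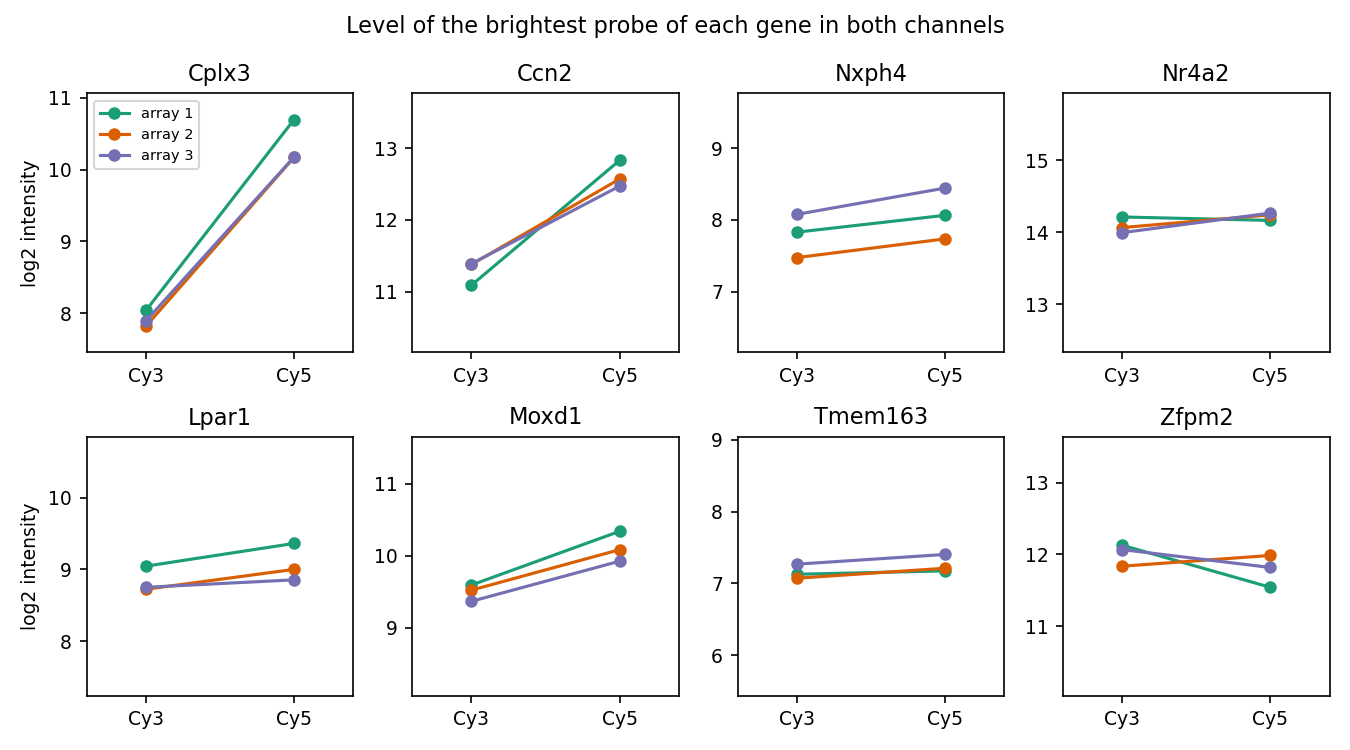
Log2 level after normalization (vertical axis) of the brightest probe of each subplate marker in the Cy3 channel (labelled wild type) and the Cy5 channel (labelled Brpf1-deficient), with a line for each of the 3 arrays; every panel spans the same number of log2 units, and levels are not comparable between genes. The lines of Cplx3, Ccn2, Moxd1, Nxph4, Lpar1 and Tmem163 rise on all 3 arrays, and those of Nr4a2 and Zfpm2 differ in direction between arrays.

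The other 4 markers did not pass the test. Lpar1, a receptor for the lipid mediator lysophosphatidic acid, had log2 levels of 9.05, 8.72 and 8.75 in Cy3 and between 8.86 and 9.36 in Cy5. Its ratios of 0.32, 0.28 and 0.10 were above 0 on every array and averaged 0.23 ± 0.11 (SD, n = 3; 95% interval 0.05 to 0.41, limma adjusted p = 0.0728), or 0.19 without array 1. Tmem163 encodes a zinc transporter of synaptic vesicles. It was near background, with its tested probe above it in Cy3 on 1 array and in Cy5 on 2, at ratios of 0.05, 0.14 and 0.13 (mean 0.11 ± 0.05 SD, 95% interval -0.06 to 0.27, limma adjusted p = 0.299), or 0.14 without array 1. Its other probe was above background in neither channel on any array, so Tmem163 gives little information at this signal.

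Nr4a2, an orphan nuclear receptor also known as Nurr1, was far above background. Its brighter probe had log2 levels of 14.21, 14.06 and 13.99 in Cy3 and 14.16, 14.24 and 14.27 in Cy5, with overlapping channels. The ratios of -0.05, 0.18 and 0.27 differed in sign (mean 0.13 ± 0.16 SD, 95% interval -0.06 to 0.33, limma adjusted p = 0.280). The second Nr4a2 probe gave 0.23, -0.04 and 0.08 (mean 0.09 ± 0.13 SD), with the order of the arrays changed. Without array 1 the means were 0.22 (adjusted p = 0.0779) and 0.02 (adjusted p = 0.840). The interval of the brighter probe leaves out a ratio as large as that of Moxd1. With median centring of each array in place of the intensity-dependent loess curve this probe was called, at 0.38 (adjusted p = 0.0497).

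Zfpm2, also known as FOG2, encodes a cofactor of GATA transcription factors. It was the only marker gene with a negative mean. The log2 levels of its brighter probe were 12.13, 11.84 and 12.07 in Cy3 and 11.54, 11.99 and 11.82 in Cy5. Its ratios were -0.59, 0.15 and -0.25 (mean -0.23 ± 0.37 SD, 95% interval -0.53 to 0.07, limma adjusted p = 0.237). The second probe followed the same order of arrays, at -0.81, 0.03 and -0.33 (mean -0.37 ± 0.42 SD, adjusted p = 0.108). Without array 1 the means were nearer 0, at -0.05 (limma adjusted p = 0.768) and -0.15 (adjusted p = 0.318). Without array 2, both probes were called as brighter in Cy3, at -0.42 (limma adjusted p = 0.0134) and -0.57 (adjusted p = 0.000848), and over all alternatives the adjusted p-values of the brighter probe ran from 0.0134 to 0.768 and those of the second from 0.000848 to 0.318.

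**Figure D3:**
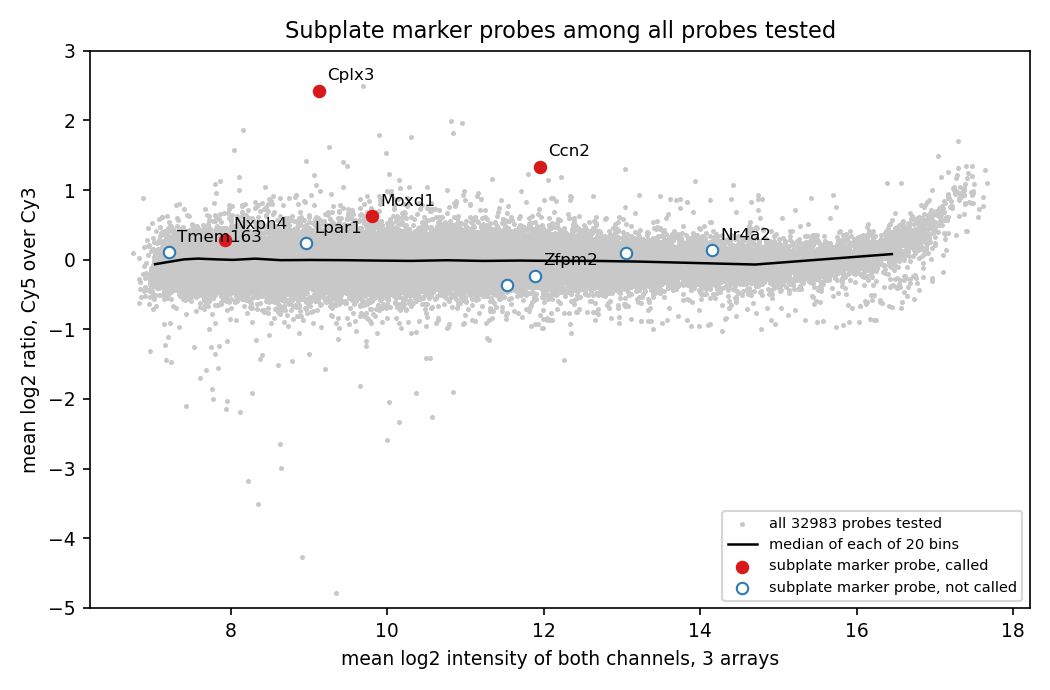
Mean log2 ratio of Cy5 over Cy3 (vertical axis) against mean log2 intensity of both channels (horizontal axis) over 3 arrays for all 32983 probes tested (grey), with the median of 20 bins of equal size (line) and the subplate marker probes (filled where called, open where not). Cplx3 and Ccn2 lie above nearly all probes of their intensity, while the brightest probes of the array rise above 0 as a whole.

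In the authors' deposited table all 12 marker probes are listed, with signs opposite to those here. The log2 fold changes there are -2.96 for Cplx3, -1.37 for Ccn2 and -0.71 for Moxd1 in the authors' deposited table. The same authors' deposited table gives 0.23 and 0.38 for the Zfpm2 probes. The smallest adjusted p over the whole of the authors' deposited table is 0.159, so no gene passes 0.05 there, while the fit used here called 5556 probes. The table's normalization and its reference channel are not stated.

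The marker genes belong to families, and 21 relatives were compared with them. Of these, 17 were tested: 2 were brighter in Cy5, 1 in Cy3, and their median was 0.09. With median centring the counts were 6 and 2, with the scanner's processed signals 1 and 0, and without arrays 1, 2 and 3 in turn 1 and 0, 2 and 2, and 0 and 1. The neuronal complexins Cplx1 (0.09 ± 0.12 SD, limma adjusted p = 0.418) and Cplx2 did not pass. The brightest Cplx2 probe had 0.09 ± 0.23 (SD, adjusted p = 0.519) and its 4 other probes had -0.03, -0.21, -0.24 and -0.26, none of them called, and Cplx4 was too dim to be tested. Of the lysophosphatidic acid receptors, Lpar3 was brighter in Cy5 (0.34 ± 0.07 SD, limma adjusted p = 0.0237, but above background in Cy5 on 2 arrays and in Cy3 on 1) and Lpar2 in Cy3 (-0.43 ± 0.21 SD, adjusted p = 0.0268). Dbh, dopamine beta-hydroxylase, was brighter in Cy5 (0.27 ± 0.04 SD, adjusted p = 0.0390), but was above background in Cy3 on 1 array, so it entered the test through Cy5. Ccn5, another secreted CCN protein, was above background in Cy3 on 2 arrays and in Cy5 on 0, so it has only a bound in Cy5; it did not pass.

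A second list held 16 other genes linked to the subplate, all tested. Drd1 was brighter in Cy5, Serpini1 in Cy3, and the other 14 were not called. The list's median was -0.08, beside 0.26 for the 8 markers and -0.01 over all genes; with median centring it was 0.10, so its sign depends on the scaling. Drd1, a dopamine receptor also abundant in striatum, had ratios of 0.82, 0.05 and 0.59 (mean 0.49 ± 0.40 SD, limma adjusted p = 0.0491), with array 2 near 0. Serpini1 encodes neuroserpin, a protease inhibitor, and had -0.38, -0.22 and -0.39 (mean -0.33 ± 0.10 SD, adjusted p = 0.0289), while its second probe averaged -0.09. Slc8a2, a sodium-calcium exchanger, and Kcnt2, a potassium channel, came next, at 0.21 ± 0.04 (SD, adjusted p = 0.0788) and 0.19 ± 0.01 (SD, adjusted p = 0.0868). The second Kcnt2 probe had the opposite sign, at -0.09 ± 0.31 (SD).

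Layer 6 projection neurons lie just above the subplate. Of 8 markers of these cells, 2 were brighter in Cy5, 1 in Cy3, and the median was 0.12. The counts were 3 and 0 with median centring (median 0.26), 1 and 0 without array 3 (median 0.07), 2 and 0 without array 1, 1 and 1 without background subtraction, and 0 and 0 with the scanner's processed signals (3 and 3 at an unadjusted p below 0.05 by limma). Syt6, a synaptotagmin, had ratios of 1.31, 0.40 and 0.88 (mean 0.86 ± 0.46 SD, limma adjusted p = 0.0159). Tbr1, a transcription factor of early-born deep-layer neurons, averaged 0.33 ± 0.21 (SD, adjusted p = 0.0479), and Crym, a thyroid hormone-binding protein, averaged -0.33 ± 0.13 (SD, adjusted p = 0.0350).

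**Figure D4:**
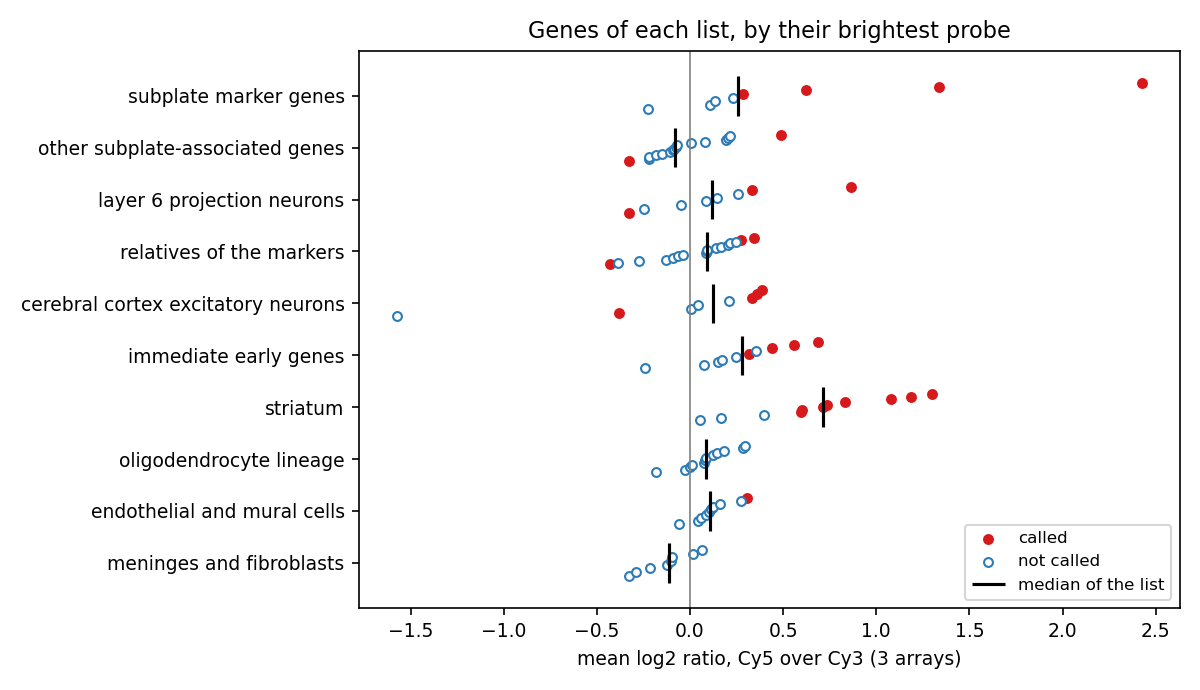
Mean log2 ratio of Cy5 over Cy3 over 3 arrays (horizontal axis) of each tested gene, by its brightest probe, for the subplate markers and 9 other gene lists (rows); filled points were called at an adjusted p below 0.05, and the black line is the list's median. The subplate markers range from -0.23 to 2.43, the other subplate-associated genes have a median of -0.08, and the striatal genes have a median of 0.71.

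Some marker genes also belong to programmes that other cells share, and those programmes were measured beside them. Ccn2 is a textbook target of YAP and TEAD: of 12 other tested genes of that pathway, 0 were called by limma in either direction (0 in Cy5 and 3 in Cy3 at an unadjusted p below 0.05), with a median of -0.05, and Axl came nearest at -0.25 (adjusted p = 0.0501). Of these genes, 1 was called in Cy3 without array 2 and 1 without background subtraction. The list mixes components of the pathway with its targets, and 12 of the 14 genes listed were bright enough to be tested. Nr4a2 is among the genes that neuronal activity induces. Of 10 tested immediate early genes, 4 were called in Cy5 and 0 in Cy3 (6 and 0 at an unadjusted p below 0.05 by limma), led by Egr2 (0.69 ± 0.17 SD, adjusted p = 0.00611) and Ier2 (0.56 ± 0.10 SD, adjusted p = 0.00813). The other 6 were not called, and mean ratios in the list went down to -0.24, for Fos. The count in Cy5 was 2 without array 1 or array 3 and 6 without array 2 or with median centring, and the list's median of 0.28 was 0.17 without array 1. The part of either programme in the marker ratios was not tested.

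Cells outside the subplate can also express these markers: Nr4a2 marks the claustrum, Lpar1 myelinating oligodendrocytes, and Ccn2 vessels and fibroblasts. Of 6 claustral genes, Oprk1 was called in Cy5 (0.62 ± 0.48 SD, adjusted p = 0.0399), Gnb4 had -0.08, and the median was -0.04 (0.15 with median centring). No claustral gene was called without array 1, without array 3 or with the scanner's processed signals (1 in Cy5 and 0 in Cy3 at an unadjusted p below 0.05 by limma in each). Of 12 oligodendrocyte genes, 0 were called by limma in either direction (2 in Cy5 and 0 in Cy3 at an unadjusted p below 0.05), with Sox10 at 0.29 (adjusted p = 0.0746), Cnp at 0.28 (adjusted p = 0.0752) and a median of 0.09. With median centring 3 were called in Cy5 and without array 2 there were 2, and a second probe of Mbp was called as reported (0.39 ± 0.22 SD, adjusted p = 0.0342). Of 10 endothelial and mural genes, Cldn5 was called in Cy5 (0.30 ± 0.14 SD, adjusted p = 0.0421), and the median was 0.11. The call of Cldn5 was lost without array 3 and with the scanner's processed signals. A second probe of Kdr was also called in Cy5 (0.45 ± 0.21 SD, limma adjusted p = 0.0244), while its brightest probe had 0.08 and was not called. Of 8 meningeal and fibroblast genes, 0 were called by limma in either direction (0 in Cy5 and 2 in Cy3 at an unadjusted p below 0.05), and the median was -0.12. Without array 3, 2 of these were called in Cy3. The part of these cells in the marker ratios was not tested.

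Markers of the striatum, which lies next to the cortex, were mostly brighter in Cy5. Of 11 striatal genes, 8 were called in Cy5 and 0 in Cy3 (9 and 0 at an unadjusted p below 0.05 by limma). Penk, which encodes the enkephalin precursor, averaged 1.08 ± 0.56 (SD, adjusted p = 0.0141), and Ebf1 averaged 0.60 ± 0.24 (SD, adjusted p = 0.0137). The list's median was 1.06, 0.29 and 0.75 on arrays 1, 2 and 3. With the scanner's processed signals its median was 0.82 and 0 of its genes were called (8 in Cy5 and 0 in Cy3 at an unadjusted p below 0.05 by limma). On the same arrays in order, Cplx3 had 2.66, 2.35 and 2.28, and Ccn2 had 1.74, 1.19 and 1.08. Haemoglobin and other erythroid genes had a median of 0.81 (0.21, 0.54 and 1.68 by array), with 2 of 6 called in Cy5 and 0 in Cy3 (5 and 0 at an unadjusted p below 0.05 by limma). Without array 1 or array 2 the count in Cy5 was 5, and without array 3 the median was 0.37. With the scanner's processed signals 0 were called (3 in Cy5 and 0 in Cy3 at an unadjusted p below 0.05 by limma). The part of either in the marker ratios was not tested.

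The genes whose 3 ratios lay nearest to those of the top markers were sought over all named genes. Nearest to Cplx3 were Ostn (1.72, 1.71 and 2.17; root mean square difference 0.66), Trh (0.84) and Glp2r (0.89). Each is still far from Cplx3 compared with the spread of its own 3 arrays (SD 0.20). In Cy3, Ostn was above background on 2 arrays and Glp2r on 1, while in Cy5 both were above it on 3. Glp2r therefore entered the test through Cy5. Nearest to Ccn2 were Ppia (0.15), Calm2 (0.15) and Ubb (0.16), which are among the brightest probes on the array. In the top bin of intensity 64.1% of probes were above 0 and 21.0% were called as brighter in Cy5. In the bin of Ccn2 itself 7.76% were called as brighter in Cy5, and its median was -0.02.

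**Figure D5:**
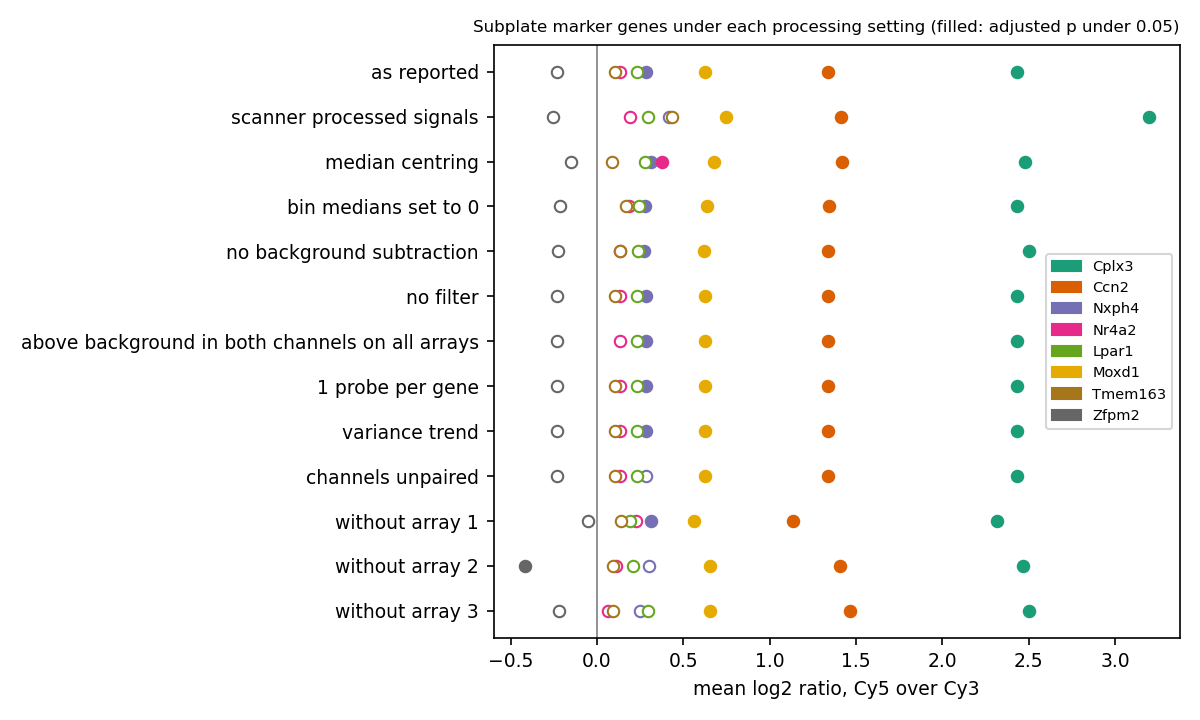
Mean log2 ratio of Cy5 over Cy3 (horizontal axis) of the brightest probe of each subplate marker under the reported processing and each alternative (rows), filled where the adjusted p was below 0.05; Tmem163 has no point where both channels had to be above background. Cplx3, Ccn2 and Moxd1 are filled in every row, at 2.31 to 3.19, 1.13 to 1.46 and 0.56 to 0.75.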

How the data were processed

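Spot intensities were deposited as scanner output of Agilent Feature Extraction 10.7.3.1 (per the file headers), as median pixel intensity of spot and local background and as signals processed by that software, with flags and a log10 ratio, of which the log10 ratio was not used here. The authors' deposited table gives log2 fold changes, average log2 values, p-values and scores (moderated t and log-odds), made with limma per the submitters' processing notes, with scaling, centring and direction unstated. Labelling started from 350 ng of total RNA with a single amplification round, per the labels' protocols.

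From the median signals, limma 3.58.1 in R 4.3.3 was used for background correction (normexp, offset 50, all spots), loess within arrays (control spots at weight 0), averaging of spots per probe without outlier spots, and an intercept-only fit with moderated variances on log2 Cy5 over Cy3, two-sided, with Benjamini-Hochberg adjustment over 32983 probes at 0.05. Probes that were well above background in either channel on 2 or more arrays were kept, and a gene is represented by its brightest kept probe. Levels are channel values after loess and Aquantile scaling, and intervals (95%) use the moderated error. Symbols came from RefSeq accessions (27656 probes) or the authors' table (4082), while 23943 probes had none; all 12 marker probes were named through RefSeq.

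The ratio pairs the 2 pups of an array, which follows from the labels' pair numbers. Whether pups came from separate litters is not stated, so p-values measure the spread between these samples. The number of arrays, 3, limits the precision. Slide and scan were shared, so no batch could be tested. On simulated data, 68% of 100 probes changed by 1 on the log2 scale and 88% of 100 changed by 2 were recovered among 32983, with 2 unchanged probes called. The simulated arrays were independent and had no dye effect, so these rates need not hold for the real arrays. Genes named were all markers, the genes of smallest adjusted p in each other list, the nearest patterns of the top 2 markers, chromosomal neighbours and Brpf1. A few others (Emx1, Cplx1, Cplx2, Gnb4, Cplx4, Mbp, Kdr, Fos) were added after their values were seen. The markers and lists were chosen with earlier results of these data known. Alternatives covered background correction, normalization, filter, probe choice, variance trend, pairing and each array left out.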

Additional observations from a re-analysis of the deposited data

How the results depend on the processing

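Cplx3, Ccn2 and Moxd1 kept their direction and call under all 12 alternatives. The count of subplate markers brighter in Cy5 stayed between 3 and 5: it was 4 as reported, 3 with the scanner's processed signals, with unpaired channels, without array 2 and without array 3, and 5 with median centring. Median centring also raised the count over all 32983 probes, with 5439 called in Cy5 against 2467 as reported. Over all probes 5556 were called, against 1436 with the scanner's processed signals, 970 with the pairing (replicate block) dropped, and 2195 to 5731 with an array left out (2195 without array 3). The share of these calls brighter in Cy5 was 44.4% as reported, 80.4% with median centring and 57.8% without the pairing, so counts by direction over all genes depend on the scaling. Of the 16 other subplate-associated genes, 2 were called as reported, 0 with the scanner's processed signals (4 in Cy5 and 1 in Cy3 at an unadjusted p below 0.05 by limma), 0 with the pairing (replicate block) dropped (3 and 2), 1 without background subtraction, 1 with 1 probe per gene, and 0 to 2 with an array left out (0 without array 3, where 2 and 3 had an unadjusted p below 0.05, and 1 without array 1). With median centring, 3 of these 16 genes were called in Cy5 and 0 in Cy3. The cause of these shifts was not tested. No result changed direction as a call. Tmem163 and the second probe of Nxph4 were limited by signal near background.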

Other observations

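The chromosomal neighbours of the subplate markers were compared with them, taking the nearest tested gene on each side. Ccn2 and Moxd1 are each other's nearest tested genes on chromosome 10, with 4 genes between them in RefSeq, of which 0 are protein-coding and 0 were tested, and both were called as brighter in Cy5. The genes flanking this pair were not called: Stx7, a syntaxin, had a ratio of 0.09 and Enpp1, a nucleotide pyrophosphatase, had -0.20 (limma adjusted p = 0.143). Beside Cplx3, Lman1l was called as brighter in Cy5 (0.36, 0.27 and 0.37; mean 0.33 ± 0.06 SD, adjusted p = 0.0246), and RefSeq also lists its name as a synonym of Cplx3, so the 2 probes may not read separate transcripts. Ulk3, on the other side of Cplx3, had -0.05. Beside Zfpm2, Oxr1 was called as brighter in Cy3 (-0.84, -0.53 and -0.46; mean -0.61 ± 0.20 SD, adjusted p = 0.0109), and Lrp12 on the other side had -0.15. The nearest tested neighbours of Nxph4, Nr4a2, Lpar1 and Tmem163 had mean ratios between -0.14 and 0.14, and none of these 8 genes was called.

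Markers of thalamus, whose axons pass through the subplate, did not share a direction: of 8 tested, 1 was brighter in Cy5 and 3 in Cy3. Slc17a6, the vesicular glutamate transporter of thalamic neurons, averaged -0.83 ± 0.12 (SD, limma adjusted p = 0.00204), while Prkcd averaged 0.53 ± 0.08 (SD, adjusted p = 0.00821). Of 7 astrocyte genes 1 was brighter in Cy5 and 2 in Cy3, but 1 and 0 with median centring, 0 and 2 without array 1, and 0 and 0 without array 3 (1 and 3 at an unadjusted p below 0.05 by limma) and with the scanner's processed signals (0 and 2). Of 8 microglial genes 3 were brighter in Cy5, but 0 without array 1 (4 in Cy5 and 0 in Cy3 at an unadjusted p below 0.05 by limma), without array 3 (2 and 0) and with the scanner's processed signals (4 and 0).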
